A study of Homo sapiens with 6 samples.

Results

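The secreted angiogenic factors were followed in H226 cells after knockdown of the lncRNA *SWINGN*: the vascular endothelial growth factor genes *VEGFA*, *VEGFB* and *VEGFC*, and *ANGPTL4*, *ESM1*, *ADM* and *FGF2*. They are 7 of the 17222 gene names in the count table, and all 7 were among the 14660 genes that passed the filter on low counts. The genes were chosen by name with their measured fold changes in this same comparison already known from an earlier analysis of these data. Their levels and fold changes are therefore a description, and no p-value is given for them. H226 is an established cell line that the labels describe as squamous lung carcinoma. RNA-seq with dT-primed cDNA was made from cells transfected with the control antisense oligonucleotide ASO_CTRL (3 libraries) or with ASO_LINC#3 (3 libraries), which targets *SWINGN* (LINC00565), and all cells were collected 48 h after transient transfection. The labels give no genotype or further treatment that separates the groups.

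VEGF-A is the main ligand of the receptor VEGFR2 on endothelial cells and drives the sprouting of new vessels, VEGF-C acts mainly through VEGFR3 on lymphatic endothelium, and VEGF-B binds VEGFR1. Angiopoietin-like 4 inhibits lipoprotein lipase and acts on vessel permeability, endocan (the product of *ESM1*) is a secreted proteoglycan best known from the tip cells of growing vessels, adrenomedullin is a vasodilator peptide, and FGF2 is a growth factor stored on heparan sulphate. In tumours these proteins are made by cancer cells as well as stroma, and *VEGFA*, *ANGPTL4* and *ADM* are textbook targets of the hypoxia-inducible factors (HIF).

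The knockdown rests on 1 oligonucleotide in 1 cell line. The level of *SWINGN* was not analysed here, which leaves the knockdown unchecked in these libraries. Between 3686828 and 10546786 reads per library fell on genes, with the fewest in ASO_LINC#3 replicate 3. Reads on no gene were 24.8%, 26.3% and 25.1% of the ASO_CTRL libraries and 28.0%, 28.1% and 27.9% of the ASO_LINC#3 libraries, so this share was higher in every knockdown library, and its part in the results was not tested. The study's reporting summary gives biological triplicates as the general rule for its experiments, without naming these libraries. The labels do not say whether the libraries of a condition came from separate cultures. Error values thus measure the spread between these samples, which may be technical. Of 10 squamous markers, *KRT5* (103 ± 12.3 CPM in ASO_CTRL) and *DSC3* (42.5 ± 3.94 CPM) were tested, *KRT6A* and *CLCA2* were under the filter, and *TP63*, *KRT14*, *SOX2*, *DSG3*, *PKP1* and *SERPINB5* were not analysed here. Of 10 mesothelial markers all 10 were tested. In ASO_CTRL the simple-epithelial keratin genes *KRT18*, *KRT7* and *KRT19* were at 5086 ± 151, 3822 ± 309 and 2051 ± 131 CPM. *UPK1B* was at 639 ± 69.7, *CALB2* at 601 ± 91.7, *LRRN4* at 143 ± 2.70 and *PDPN* at 100 ± 3.19 CPM. *UPK3B* (49.4 ± 4.82), *WT1* (46.0 ± 6.06) and *MSLN* (29.1 ± 2.05 CPM) were lower. The squamous label could thus be checked on 2 of its 10 markers. CPM are read counts scaled to the TMM-adjusted total of reads on genes in each library.

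In the transcription start regions given by RefSeq (GRCh38.p14), which matched 6 of the 7 genes, all but *VEGFA*, the 60 bases before the start show how the genes differ in core promoter letters. The sequences are written 5′ to 3′ on the strand of the gene, and capitals mark TATAAA.

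VEGFB (chr11:64234524-64234583, plus strand): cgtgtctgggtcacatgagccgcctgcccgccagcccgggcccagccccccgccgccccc
VEGFC (chr4:176792923-176792982, minus strand): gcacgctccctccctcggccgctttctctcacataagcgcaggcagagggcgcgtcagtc
ANGPTL4 (chr19:8364095-8364154, plus strand): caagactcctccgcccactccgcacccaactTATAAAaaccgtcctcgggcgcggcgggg
ESM1 (chr5:54985594-54985653, minus strand): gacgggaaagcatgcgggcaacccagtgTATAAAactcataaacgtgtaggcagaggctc
ADM (chr11:10305013-10305072, plus strand): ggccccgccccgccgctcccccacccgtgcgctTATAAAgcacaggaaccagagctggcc
FGF2 (chr4:122826771-122826830, plus strand): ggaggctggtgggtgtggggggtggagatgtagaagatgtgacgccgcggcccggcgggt

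*ANGPTL4*, *ESM1* and *ADM* held TATAAA on the gene's own strand, with its first base 29, 32 and 27 bases before the start. *VEGFB*, *VEGFC* and *FGF2* held none in the window searched, which ran from 250 bases before to 50 bases after the start. Of all 35116 promoters searched in the same way 11.5% held TATAAA on either strand, and 2.3% held it on the gene's strand with its first base between 40 and 20 bases before the start. The hypoxia response core ACGTG, searched on both strands, stood in *ANGPTL4* and *ESM1* and in 21.4% of promoters. In the 30 bases that hold it, capitals mark ACGTG or its reverse complement.

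ANGPTL4 (chr19:8363909-8363938, plus strand): ggaaagaagagtCACGTctcccacggttcg
ESM1 (chr5:54985594-54985623, minus strand): taaaactcataaACGTGtaggcagaggctc

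The other core, GCGTG, was found in 5 of the 6 promoters, all but that of *ANGPTL4*, and in 36.5% of all promoters. The GC box core GGGCGG was in 5 of 6, all but *ESM1* (45% of all promoters), and the ETS core GGAAG in 4 of 6 (71.9%). TGANTCA (AP-1), TGACGTCA (CRE), GGGNNTTCC (NF-kB) and TTGCATCA (amino acid response element) were in 0 of 6, against 7.71%, 1.85%, 6.58% and 0.866% of all promoters. Each motif was searched on both strands, and these matches describe letters in the window and not bound sites.

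Of the 3 VEGF ligands, *VEGFA* and *VEGFC* were more abundant in every ASO_LINC#3 library and *VEGFB* was not. *VEGFA* (GRCh37 chromosome 6, 43737921 to 43754224, plus strand) had 53.6, 53.0 and 59.4 CPM in ASO_CTRL replicates 1 to 3 and 254, 262 and 230 CPM in ASO_LINC#3 replicates 1 to 3. The conditions lay far apart compared with the spread within them. Its mean went from 55.3 ± 3.55 to 249 ± 16.9 CPM (SD, n = 3 per group), a fold change of 4.49 and a log2 fold change of 2.17 (standard error 0.13, 95% interval 1.88 to 2.45). The counts behind it were 308 to 623 reads in ASO_CTRL and 847 to 1731 in ASO_LINC#3. An unnamed antisense lncRNA covers 188 bp of *VEGFA* exon.

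*VEGFC*, which codes for the lymphatic ligand, lies on chromosome 4 (177604689 to 177714076, minus strand). It had 25.7, 22.7 and 30.0 CPM in the control libraries, and 79.1, 78.4 and 51.2 CPM after knockdown. Replicate 3 of ASO_LINC#3 was lower than the other knockdown libraries and still above every control. The mean went from 26.2 ± 3.69 to 69.6 ± 15.9 CPM (SD, n = 3 each), a log2 fold change of 1.41 (standard error 0.19, 95% interval 0.99 to 1.83). Taken library by library against the control mean, the log2 change was 1.59, 1.58 and 0.97.

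*VEGFB* (chromosome 11, 64002056 to 64006736, plus strand) codes for the ligand of VEGFR1. Its levels were 94.95, 105 and 116 CPM in ASO_CTRL and 89.1, 79.7 and 129 CPM in ASO_LINC#3. Knockdown replicates 1 and 2 lay below the controls and replicate 3 above them, so the conditions overlapped. The mean was 105 ± 10.3 CPM before and 99.1 ± 25.9 CPM after knockdown (SD, n = 3 each), and the log2 fold change of −0.09 (standard error 0.18) had a 95% interval from −0.49 to 0.31. Without ASO_LINC#3 replicate 3 the log2 fold change of *VEGFB* was −0.32, and without replicate 2 it was 0.05.

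**Figure D1:**
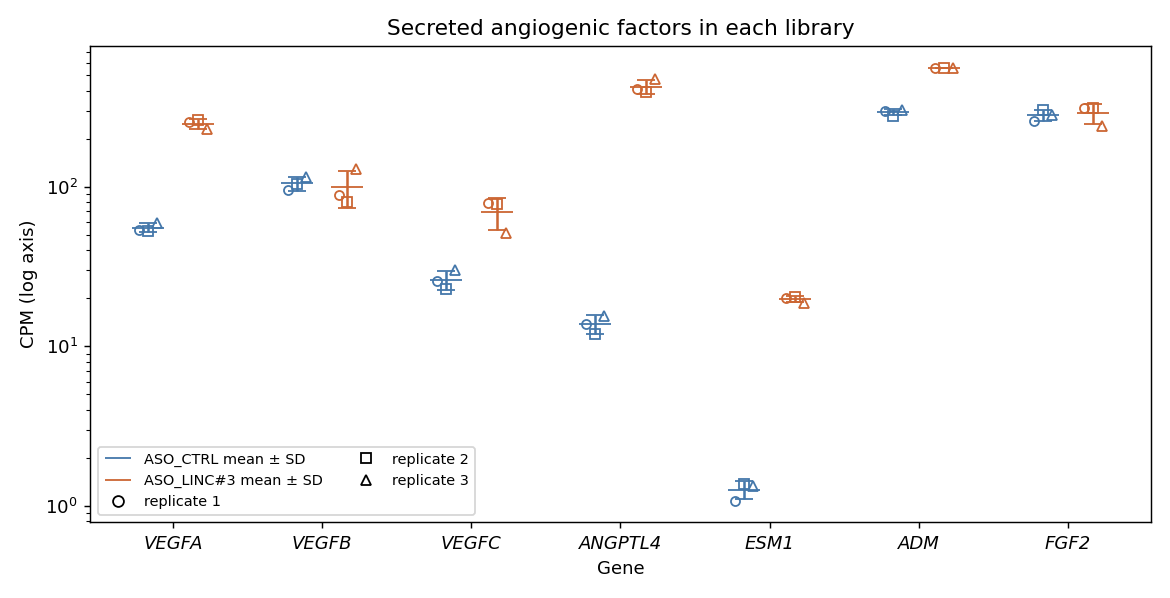
Level of each of the 7 genes in every library, in CPM on a log axis, with ASO_CTRL and ASO_LINC#3 side by side. Points are libraries, with a shape per replicate, and bars are the mean ± SD of 3. *VEGFA*, *VEGFC*, *ANGPTL4*, *ESM1* and *ADM* have all knockdown libraries above all controls, and *VEGFB* and *FGF2* overlap.

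*ANGPTL4* and *ESM1* had the largest fold changes of the 7. *ANGPTL4* (chromosome 19, 8428173 to 8439254, plus strand) had 13.9, 11.9 and 15.5 CPM in ASO_CTRL and 408, 390 and 471 CPM in ASO_LINC#3. Every knockdown library was above every control, and the spread within each condition was small beside the difference. The means were 13.8 ± 1.84 and 423 ± 42.5 CPM (SD, n = 3 each), a fold change of 30.4 and a log2 fold change of 4.93 (standard error 0.16, 95% interval 4.57 to 5.29). This was the 5th highest log2 fold change of the 14660 genes tested.

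*ESM1* (chromosome 5, 54273695 to 54318499, minus strand) had few reads in the controls, 8, 8 and 14, and had 136, 119 and 69 reads after knockdown. In CPM these were 1.08, 1.38 and 1.34 against 19.99, 20.4 and 18.7. The knockdown libraries lay close together and above every control. The reads behind them were few, so nothing is read from how close they lay. The mean went from 1.26 ± 0.162 to 19.7 ± 0.869 CPM (SD, n = 3 each), and the log2 fold change was 3.94 (standard error 0.22, 95% interval 3.45 to 4.44), the 15th highest. A lncRNA on the same strand shares 44 bp of exon with *ESM1*.

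*ADM*, the precursor of adrenomedullin, lies on chromosome 11 (10326620 to 10328944, plus strand). It had 299, 278 and 304 CPM in ASO_CTRL and 556, 559 and 553 CPM in ASO_LINC#3. All knockdown libraries were above all controls and varied least of the 7 genes, with a coefficient of variation of 0.487%. Counts of this size, 2041 to 3783 reads, usually vary more by sampling alone, so nothing is read from this closeness. The mean went from 294 ± 13.6 to 556 ± 2.71 CPM (SD, n = 3 each), a fold change of 1.89 and a log2 fold change of 0.92 (standard error 0.11, 95% interval 0.67 to 1.17). Under glmTreat, the edgeR test against a bound of 0.5 on the log2 scale, *ADM* did not pass. The next gene on the same strand, *AMPD3*, an AMP deaminase 916 bp away, rose from 5.44 ± 1.99 to 22.4 ± 3.41 CPM (log2 fold change 2.09, edgeR adjusted p = 0.000647).

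*FGF2* (chromosome 4, 123747837 to 123819391, plus strand) differed little between conditions. It had 258, 301 and 283 CPM in the controls and 312, 314 and 242 CPM after knockdown, so knockdown replicates 1 and 2 were above every control and replicate 3 below every control. The log2 fold change was 0.04 (standard error 0.14, 95% interval −0.26 to 0.35). *NUDT6*, transcribed antisense to *FGF2*, shares 804 bp of exon with it, and the strand setting of the counting is not given in the sources used here, so reads of the shared part cannot be told apart. *NUDT6* was at 7.31 ± 0.669 and 8.31 ± 2.30 CPM.

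**Figure D2:**
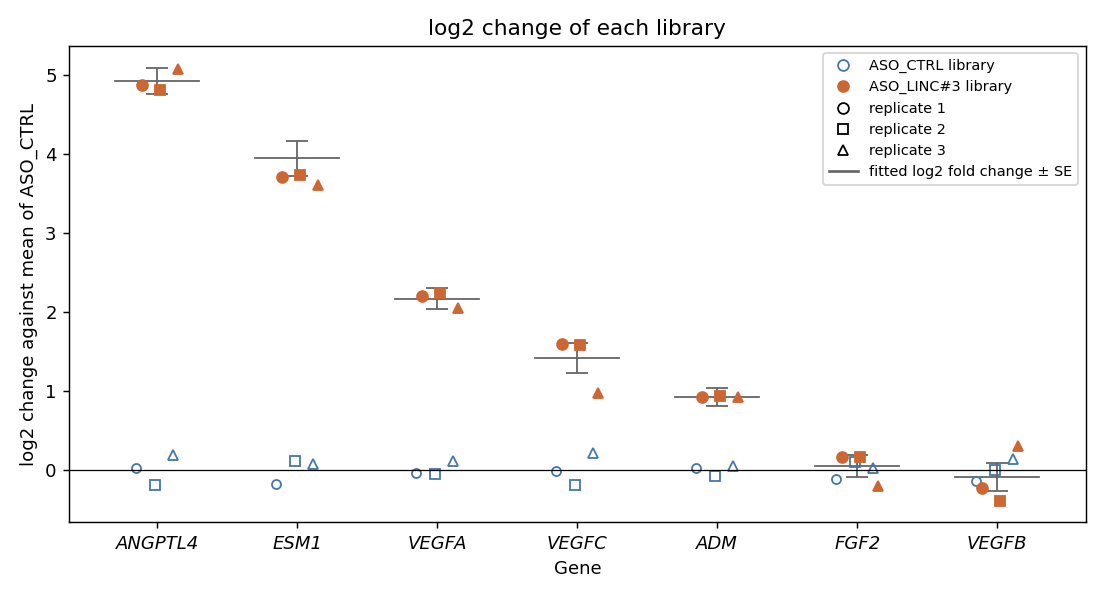
Log2 change of every library against the mean of ASO_CTRL for each of the 7 genes, with the fitted log2 fold change ± standard error as grey bars. *ANGPTL4*, at 4.93, and *ESM1*, at 3.94, lie highest, the library points of *ESM1* lie below its fitted value since they include a prior count of 2, and the knockdown libraries of *VEGFB* and *FGF2* lie on both sides of 0.

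In all, 5 of the 7 passed an adjusted p below 0.01 with a log2 fold change beyond 0.5, each of them higher after knockdown. Over all 14660 genes tested 7.54% passed in either direction, 4.91% as higher and 2.63% as lower. All 3 knockdown libraries were above all 3 controls in the same 5 genes, against 18.7% of tested genes, and none of the 7 had all knockdown libraries below, against 17.3%. Because the genes were selected on this contrast, nothing is read from these counts. The median log2 fold change of the 7 was 1.41, and that of all genes tested was −0.0027. ASO_LINC#3 replicate 3, the library with the fewest reads, had the smallest absolute change of the knockdown libraries in 4 of the 7 genes, and leaving out any 1 library left 5 of 7 past both thresholds. As these are bulk samples, a change in the cells that express a gene and a change in its RNA per cell cannot be told apart.

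Levels of different genes were compared as CPM per kb of the canonical transcript. In ASO_CTRL *ADM* was highest at 197 ± 9.15 CPM per kb, followed by *VEGFB* at 58.2 ± 5.70 and *FGF2* at 42.2 ± 3.26. *VEGFA* (15.3 ± 0.984), *VEGFC* (11.6 ± 1.63), *ANGPTL4* (7.35 ± 0.983) and *ESM1* (0.603 ± 0.0774) followed, all in CPM per kb as mean ± SD of 3 libraries, and no neighbours in this order overlapped between libraries. After knockdown the order was different. *ADM* was again highest at 373 ± 1.81 CPM per kb, *ANGPTL4* was 2nd at 226 ± 22.7 and *VEGFA* 3rd at 68.9 ± 4.69. *VEGFB* (54.9 ± 14.3) overlapped with *VEGFA* and with *FGF2* (43.5 ± 6.16), so their order is not set, while *VEGFC* (30.8 ± 7.02) and *ESM1* (9.39 ± 0.415) were lower in every library. The place of *VEGFA* depends on its length: with the union of all its annotated exons (14431 bp in place of 3609 bp) it was 6th of the 7 in both conditions. First strands were primed with dT oligonucleotides, which may place reads unevenly along a transcript, and this was not tested.

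**Figure D3:**
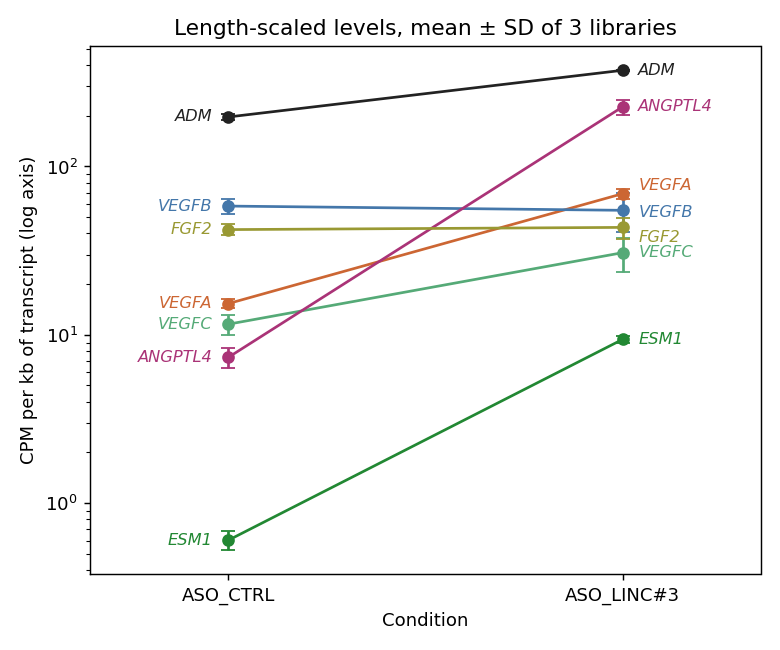
Mean level of each of the 7 genes in CPM per kb of canonical transcript, on a log axis, in ASO_CTRL and in ASO_LINC#3, with lines joining the same gene and error bars for the SD of 3 libraries. *ADM* is highest in both conditions, and *ANGPTL4* goes from 6th to 2nd.

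Within the VEGF family the share of *VEGFB* in the ligand RNA was lower after knockdown, with its own level at a log2 fold change of −0.09, and that of *VEGFA* was higher. Shares were taken of the summed reads per kb of *VEGFA*, *VEGFB*, *VEGFC* and *PGF* (placental growth factor), and *VEGFD* was not analysed here. *VEGFA* held 18.4%, 17.5% and 17.3% of this sum in the control libraries and 44.7%, 47.0% and 39.5% after knockdown. *VEGFB* held 65.1%, 69.2% and 67.4%, and then 31.3%, 28.6% and 44.2%. For both genes the conditions did not overlap, and ASO_LINC#3 replicate 3 was the knockdown library nearest to the controls. The share of *VEGFC* was 13.3% ± 1.18 and 19.6% ± 4.76 and that of *PGF* was 1.69% ± 0.696 and 2.04% ± 0.255 (SD, n = 3 each). Both overlapped between conditions, with *VEGFC* at 14.05% in ASO_LINC#3 replicate 3 and at 11.99% to 14.07% in the controls. Without scaling by length, *VEGFA* had 29.3% and then 58.8% of the reads and *VEGFB* 55.5% and then 23.5%. With union exon lengths *VEGFB* went from 78.9% to 52.5%, *VEGFC* from 14.8% to 28.3% and *VEGFA* from 5.69% to 18.2%. On that scale *VEGFC* gained more than *VEGFA* and held more after knockdown, and its libraries did not overlap between conditions, so the order of the ligands and the one that gained most depend on the length. The lower share of *VEGFB* and the higher share of *VEGFA* were found with each length. This had to be so and is no separate result. Of the genes summed, *VEGFA* had the highest fold change (4.49) and *VEGFB* the lowest (0.94), with *VEGFC* (2.66) and *PGF* (2.20) between.

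**Figure D4:**
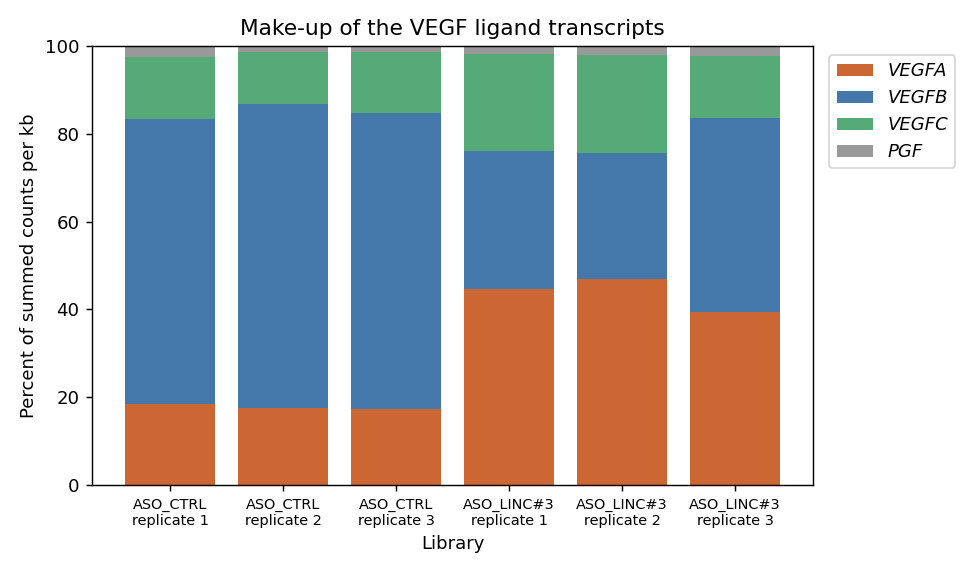
Share of each VEGF ligand gene, in percent of their summed reads per kb of canonical transcript, in each of the 6 libraries as stacked bars from 0. The *VEGFA* part is at most 18.4% in the ASO_CTRL libraries and at least 39.5% in the ASO_LINC#3 libraries.

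The genes around these factors were taken from lists by role, which were chosen with earlier results of these data known. For them the adjusted p-values of edgeR's quasi-likelihood test over all genes tested are given as a description. Over all genes tested 4.91% passed as higher and 2.63% as lower, with a median log2 fold change of −0.0027. Of 10 further VEGF and angiopoietin ligands *PGF* alone was tested. It was at 2.50 ± 0.876 CPM in the controls and 5.60 ± 0.798 CPM after knockdown and missed the threshold (log2 fold change 1.14, adjusted p = 0.023). Of 14 other angiogenic growth factors tested 5 rose, 1 fell and 8 did not pass, with a median log2 fold change of 0.70. *FGF18*, an FGF ligand, fell from 221 ± 12.3 to 52.8 ± 4.77 CPM (log2 fold change −2.07, adjusted p = 8.39e-06), and its libraries did not overlap between conditions. *FGF5* rose from 11.1 ± 0.879 to 31.7 ± 4.93 CPM (adjusted p = 0.000344), and the EGF receptor ligand *HBEGF* from 52.1 ± 6.25 to 113 ± 9.29 CPM (adjusted p = 0.000561). *TGFA*, another ligand of the EGF receptor, rose by a log2 fold change of 1.41, and without ASO_CTRL replicate 3 its adjusted p was 0.0124. The matricellular gene *CYR61* had the most reads of the list, at 1872 ± 94.96 and 2512 ± 319 CPM, and missed the thresholds (log2 fold change 0.42, adjusted p = 0.0392). It passed without ASO_LINC#3 replicate 3, at a log2 fold change of 0.52. *APLN* (3.48 ± 0.189 and 9.22 ± 1.99 CPM) and *ANG* (2.60 ± 1.36 and 10.1 ± 2.13 CPM) also rose. Their adjusted p was 0.0144 to 0.0242 for *APLN* without any 1 control or ASO_LINC#3 replicate 1, and 0.0105 to 0.02 for *ANG* with 1 of ASO_CTRL replicates 2 and 3 and ASO_LINC#3 replicates 1 and 2 left out. Without ASO_CTRL replicate 3, 3 genes of this list passed, and without ASO_LINC#3 replicate 3, 9 passed.

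Receptors were measured on the cancer cells themselves. Of 9 tested, 2 rose and 1 fell, with a median log2 fold change of 0.29. *TIE1*, an orphan receptor of the angiopoietin system, rose from 5.91 ± 0.465 to 21.5 ± 3.92 CPM (log2 fold change 1.87, adjusted p = 0.000211) and passed without any 1 library. *KDR*, which codes for VEGFR2, fell from 7.44 ± 0.492 to 2.95 ± 0.722 CPM (log2 fold change −1.29, adjusted p = 0.00571). *FGFR1*, a receptor of FGF2, rose from 169.6 ± 7.36 to 273 ± 12.2 CPM (log2 fold change 0.69, adjusted p = 0.00314). The calls of *KDR* and *FGFR1* were held without ASO_LINC#3 replicate 3 and lost when any of the other 5 libraries was left out, with adjusted p of 0.014 to 0.0309 for *KDR* and 0.0152 to 0.0225 for *FGFR1*.

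Genes that process or bind the factors passed in both directions. Of 18 tested 1 rose, 2 fell and 15 did not pass. A positive log2 fold change was found in 5 of the 18, and the median was −0.20. *PAM*, the enzyme that amidates adrenomedullin, rose from 36.0 ± 3.82 to 64.7 ± 11.8 CPM (adjusted p = 0.00603). *ADAMTS3*, which cleaves VEGF-C to its active form, fell from 12.3 ± 1.64 to 5.21 ± 1.29 CPM (adjusted p = 0.0058), and the proprotein convertase gene *PCSK6* fell by 1.28 on the log2 scale (adjusted p = 0.00619). With 1 of the libraries other than ASO_LINC#3 replicate 3 left out the adjusted p was up to 0.0423 for *PAM*, 0.0267 for *ADAMTS3* and 0.0391 for *PCSK6*, and without ASO_LINC#3 replicate 3 the list had 7 genes past the thresholds. The gene with the most reads, the heparan sulphate proteoglycan gene *SDC4*, was at 249 ± 29.8 and 373 ± 65.9 CPM (adjusted p = 0.0247). Of 10 angiogenesis inhibitors 1 rose: *ADAMTS1*, a secreted protease that binds VEGF-A, went from 25.8 ± 2.78 to 48.6 ± 4.25 CPM (log2 fold change 0.90, adjusted p = 0.00248). It lost its call without ASO_CTRL replicate 2 or 3 or ASO_LINC#3 replicate 2 (adjusted p 0.0126 to 0.0187). *THBS2*, a thrombospondin gene and the inhibitor with the most reads, was at 271 ± 7.24 and 304 ± 16.8 CPM (adjusted p = 0.352).

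Of 12 HIF target genes outside the 7 factors 11 rose and 0 fell, against 4.91% and 2.63% of all genes tested. The median log2 fold change of the list was 1.71, against −0.0027 over all genes tested. *NDRG1*, a stress-responsive gene, rose from 50.7 ± 6.37 to 587 ± 51.9 CPM (log2 fold change 3.53, adjusted p = 5.01e-07). *ANKRD37* rose by a log2 fold change of 2.65, the mitophagy receptor gene *BNIP3* by 2.15 and the glucose transporter gene *SLC2A1* by 1.67. *LDHA*, lactate dehydrogenase A, had the most reads and rose least of those that passed, by 0.60 (adjusted p = 0.00687, and 0.0201 to 0.0497 when any library other than ASO_LINC#3 replicate 3 was left out). Between 8 and 12 of the list passed when 1 library was left out, 8 without ASO_CTRL replicate 3. The gene that did not pass was *PDK1* (log2 fold change 0.85). Of 5 PPAR target genes tested, listed because *ANGPTL4* is also a target of these lipid-sensing receptors, 1 passed. *CPT1A*, an enzyme gene of fatty acid entry into mitochondria, rose from 18.6 ± 2.04 to 37.3 ± 6.03 CPM (adjusted p = 0.00305). Its adjusted p was 0.0125 to 0.0212 when any library other than ASO_LINC#3 replicate 3 was left out. *ACADVL*, with the most reads, was at 90.9 ± 7.15 and 133 ± 46.5 CPM (adjusted p = 0.0968). *PLIN2* was under the filter, with 0, 0 and 2 reads in ASO_CTRL and 21, 6 and 4 in ASO_LINC#3. With no filter on low counts 2 genes of the PPAR list passed.

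**Figure D5:**
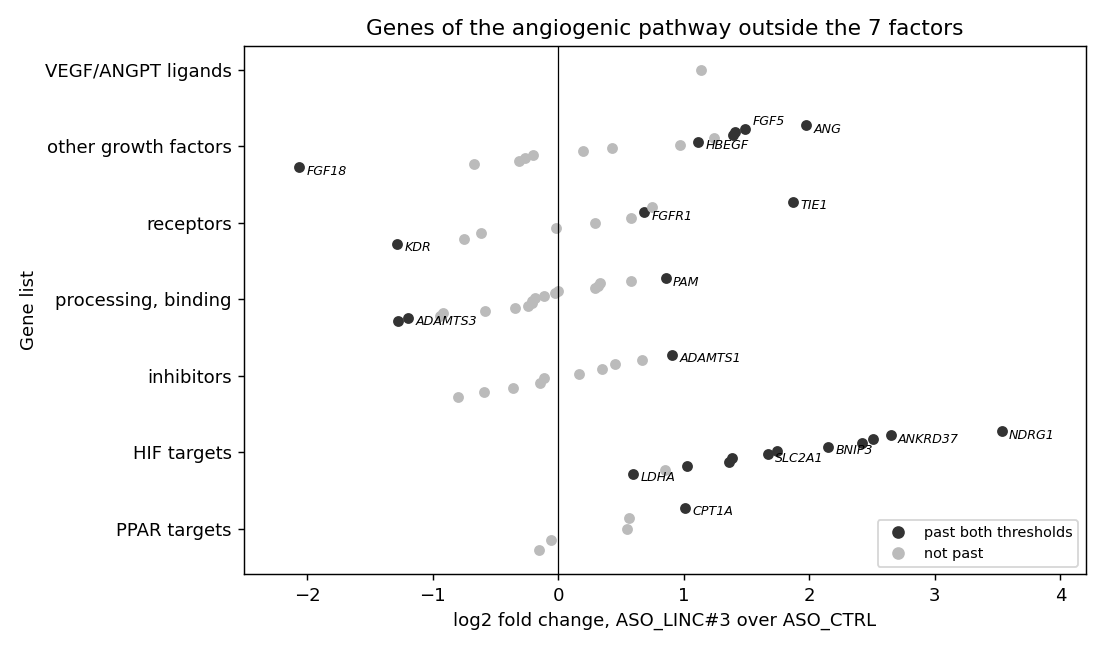
Log2 fold change, ASO_LINC#3 over ASO_CTRL, of every tested gene of the lists of ligands, growth factors, receptors, processing and binding genes, inhibitors, HIF targets and PPAR targets, 1 point per gene, dark where past both thresholds. Points within a list are spread vertically in order of fold change. The dark points of the HIF list all lie to the right of 0, while those of the receptor and processing lists lie on both sides.

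Among markers of other cell types, 1 of 3 endothelial markers tested rose (*TIE1*) and 1 fell (*KDR*), and 2 of 10 mesothelial markers fell and 8 did not pass. The summed level of 4 endothelial markers was 54.6 to 58.2 CPM in ASO_CTRL and 69.0 to 92.7 CPM in ASO_LINC#3, and these were *KDR*, *TIE1*, *EGFL7* (42.8 ± 0.912 and 52.1 ± 13.5 CPM) and *ROBO4*, which was under the filter. The other 8 of this list, with the defining markers *PECAM1*, *CDH5* and *VWF*, were not analysed here. The summed level of the mesothelial markers was 12169 to 13051 CPM in the controls and 7212 to 12152 CPM after knockdown, most of it from the keratin genes *KRT18*, *KRT7* and *KRT19*, none of which passed. *CALB2* (calretinin) fell from 601 ± 91.7 to 154 ± 47.6 CPM (adjusted p = 0.000195) and *LRRN4* from 143 ± 2.70 to 47.6 ± 3.18 CPM (adjusted p = 3.3e-05). *KRT18*, the marker with the most reads, was at 2924, 2881 and 5260 CPM in the knockdown libraries, with replicate 3 apart from the other knockdown libraries. The 4 squamous markers summed to 133 to 163 CPM and 92.2 to 98.4 CPM, most of it from *KRT5* and *DSC3*. *DSC3* fell by 0.88 on the log2 scale (adjusted p = 0.00571, and 0.0137 to 0.0367 in the 4 of 6 fits without 1 library that lost the call, those without any 1 control or without ASO_LINC#3 replicate 1). *KRT5* did not pass (log2 fold change −0.58, adjusted p = 0.0192). Under the filter, *KRT6A* and *CLCA2* went the other way on few reads. *KRT6A* had 0, 0 and 1 reads in ASO_CTRL and 14, 5 and 4 in ASO_LINC#3, and *CLCA2* was at 0.804 ± 0.213 and 1.44 ± 0.535 CPM. The part of these markers in the levels of the 7 factors was not tested.

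The genes most like each factor over the 6 libraries were sought among 10214 genes with a mean of at least 50 reads, by Pearson's r of log2 CPM. With libraries in 2 conditions, r is set largely by the difference between conditions, and it is given as a description. *VEGFA* was most like *P4HA2*, a collagen prolyl hydroxylase gene (r = 0.9998), and *PODXL* (0.9997). For *VEGFC* they were *SMAD7* (0.9978) and *FHL2* (0.9973), for *ANGPTL4* the transcription factor genes *KLF6* (0.9993) and *BHLHE40* (0.999), and for *ESM1* they were *FUT11* and *FAM83A* (both 0.9996). *ADM* was most like *TUBB6* (0.9991) and *AC104135.3* (0.9987). The factors whose conditions overlapped had lower values, 0.9723 for *VEGFB* with *TECR* and 0.9713 with *ZSWIM7*, and 0.9915 for *FGF2* with *FAM208B* and 0.9907 with *MRPS6*.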

How the data were processed

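RNA-seq of H226 cells was analysed, 3 ASO_CTRL and 3 ASO_LINC#3 libraries, grouped and numbered by the sample labels. The labels name H226 for every library, as do the study's results, while its methods for RNA-seq name BJ fibroblasts. Per the labels and methods, total RNA was reverse transcribed with dT oligonucleotides and sequenced as single reads of 75 bp, and the submitters' processing notes name STAR, hg19 and edgeR without versions. The authors deposited raw counts, whole numbers for each gene name with no normalization. The counting tool, annotation and strand setting are not given in the sources used here. Reads on no gene, in 4 rows, made up 24.8% to 26.3% of the ASO_CTRL and 27.9% to 28.1% of the ASO_LINC#3 libraries and were not used.

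The counts were fitted with edgeR 4.0.16 under R 4.3.3 (filterByExpr, TMM scaling, quasi-likelihood F-test, Benjamini-Hochberg adjustment over 14660 genes). A gene passed at an adjusted p below 0.01 and a log2 fold change beyond 0.5, and 1106 did, 720 higher and 386 lower. "Rose" and "fell" are used for genes that passed. Per-library log2 changes use a prior count of 2, which lowers them for small counts. Intervals come from the fitted standard error and cover the spread between libraries. The code was tested on simulated counts. Depth limits *ESM1* most.

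The 7 factors, the lists and the tests were chosen with earlier results of these data known. Named list genes are those past both thresholds (at most 4 by p-value) and the most abundant, and for each factor the 2 genes with the highest r. Beyond that rule *APLN*, *ANG*, *PDK1*, *KDM3A* and *PLIN2* were named after their values were seen. Genes of the cell type marker lists outside that rule, such as *MSLN*, *WT1*, *KRT7*, *KRT19* and *UPK1B*, were also named. *NUDT6* was named for its exon overlap with *FGF2*. Positions and lengths come from GENCODE release 44 lifted to GRCh37, whose gene models may differ from those used for counting. Promoters are from RefSeq on GRCh38.p14, and no position was converted between builds. Libraries of 1 condition differed by more than sampling noise (chi-square per degree of freedom 2.50 to 14.0), so each was 1 replicate. Alternatives were DESeq2 1.42.0, limma-voom (limma 3.58.1), other scalings, filters and thresholds, the replicate number as a block, and leaving out each library.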

Additional observations from a re-analysis of the deposited data

How the results depend on the processing

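Over the alternatives of tool, scaling, filter, threshold and libraries, 5 of the 7 factors passed in every fit except 2, each with 4: with at least 10 counts in every library *ESM1* was not tested, and with glmTreat *ADM* (log2 fold change 0.92) missed the threshold. The log2 fold changes ranged from 2.13 to 2.22 for *VEGFA*, from 1.31 to 1.58 for *VEGFC*, from 4.84 to 5.03 for *ANGPTL4*, from 3.85 to 3.998 for *ESM1* and from 0.89 to 0.94 for *ADM*. Those of *VEGFB* (−0.32 to 0.05) and *FGF2* (−0.02 to 0.16) crossed 0 and were never past the threshold. The number of all genes past both thresholds was 1106, and became 2465 at an adjusted p below 0.05 and 384 with glmTreat. It was from 359 (without ASO_CTRL replicate 3) to 2616 (without ASO_LINC#3 replicate 3) when 1 library was left out, and the cause was not tested.

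With the replicate block the number of genes past both thresholds was 656, and it held 5 of the 7 factors. Among the named list genes *KDR*, *FGFR1*, *PAM*, *PCSK6*, *ADAMTS3*, *ADAMTS1*, *LDHA* and *DSC3* did not pass with the block (adjusted p 0.0103 to 0.0274). The HIF target gene *KDM3A* also lost its call in that fit (adjusted p 0.0142). With the block 1 receptor, 0 of 18 processing and binding genes, 0 of 10 inhibitors and 9 of 12 HIF targets passed. With glmTreat 1 receptor and 0 of the processing genes and the inhibitors passed. Deviations of same-numbered libraries from their group means correlated at 0.059, −0.149 and −0.18. With 3 libraries per group these values cannot tell whether the numbers pair the libraries. The VEGF shares moved with the length used: without length *VEGFA* had 29.3% and 58.8% and *VEGFB* 55.5% and 23.5% in ASO_CTRL and ASO_LINC#3, and with union exon length, an alternative chosen after seeing the data, *VEGFA* had 5.69% and 18.2%, *VEGFB* 78.9% and 52.5% and *VEGFC* 14.8% and 28.3%. In all 110 of 111 fits of a factor under an alternative kept its side of the threshold, with its direction where it had passed. Because the factors were selected on this contrast and the fits share the same counts, nothing is read from this number.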
